A study of Mus musculus with 12 samples.

Results

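Gene expression was compared between non-aggregate hepatocytes, labelled premalignant, and normal hepatocytes of the mouse. The members were 6 of the 12 bead arrays of the series and were chosen by their titles and cell type labels alone: 3 arrays of non-aggregate cells and 3 arrays of normal cells. All samples were freshly isolated liver cells of the inbred B6 strain, from male animals that the design text calls matched for age. The normal group carried the label Normal Hepatocyte. The non-aggregate group carried the label Non aggregate (premalignant) Hepatocytes, while the sample titles used the word premalignant for the aggregate group only. Liver tumours (hepatocellular carcinoma, HCC) were induced in the study by injection of DEN (diethylnitrosamine), a carcinogen that hepatocytes activate to a DNA-alkylating agent. The labels give no dose, age or interval for any group, do not state whether the normal mice received an injection, and do not state whether the 3 samples of a group came from separate animals. The p-values of the gene tests measure the spread within groups, pooled over all 12 arrays, those of HCC and aggregate cells included. That spread may therefore be technical. All 3 normal arrays lay on chip 1 with the HCC arrays, and all 3 non-aggregate arrays lay on chip 2 with the arrays of aggregate premalignant cells. Chip and group therefore cannot be told apart in any comparison of non-aggregate with normal cells. The cells were bulk samples, so fewer cells of a type and less RNA per cell cannot be told apart either.

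Hepatocytes make most plasma proteins, and under the cytokine IL-6 they switch to acute phase proteins through the receptor subunit gp130 and the transcription factor STAT3, whose target Socs3 feeds back on the pathway. Metallothioneins are small metal-binding proteins whose genes respond to zinc through the factor MTF1, to glucocorticoids and to IL-6. A premalignant hepatocyte in the carcinogen model is a cell with a lasting change that may give rise to a tumour, and tumour cells of this model are known for markers that the adult liver keeps low, such as Afp and Gpc3.

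The promoters below are of 5 called genes, shown because each holds the short motif of a factor that is known, as background, to act on that gene family. They were chosen for these matches, and other called genes also had a promoter sequence at hand. The windows are the 250 bases before the annotated start in RefSeq (GRCm38.p6), written in the direction of the gene, with the matches in capitals. Mt2 lies on the plus strand at chr8:94172368-94172617, and its capitals mark 3 matches to the metal response element, searched as TGCACNC and TGCGCNC on both strands. Mt1 lies on the plus strand at chr8:94178839-94179088, with 1 such match. Socs3 lies on the minus strand at chr11:117969367-117969616, with 1 match to the STAT motif TTCNNNGAA. Cxcl1 lies on the plus strand at chr5:90890995-90891244, with 2 overlapping matches, 1 on each strand, to the NF-kB motif, which is GGGA, any 2 bases and TTCC. Irgm2 lies on the plus strand at chr11:58214727-58214976, with 1 match to the interferon response motif, which is GAAA, any 2 bases and GAAA.
Mt2: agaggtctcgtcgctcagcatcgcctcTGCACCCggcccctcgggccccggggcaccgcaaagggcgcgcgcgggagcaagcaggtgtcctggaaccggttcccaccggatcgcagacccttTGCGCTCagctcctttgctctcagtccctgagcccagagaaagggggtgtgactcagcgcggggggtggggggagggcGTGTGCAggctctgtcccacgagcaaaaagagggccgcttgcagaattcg
Mt1: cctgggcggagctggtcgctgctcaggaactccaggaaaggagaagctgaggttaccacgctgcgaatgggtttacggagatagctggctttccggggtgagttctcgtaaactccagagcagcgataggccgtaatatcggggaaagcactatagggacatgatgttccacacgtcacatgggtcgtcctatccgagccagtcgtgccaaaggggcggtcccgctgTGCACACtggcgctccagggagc
Socs3: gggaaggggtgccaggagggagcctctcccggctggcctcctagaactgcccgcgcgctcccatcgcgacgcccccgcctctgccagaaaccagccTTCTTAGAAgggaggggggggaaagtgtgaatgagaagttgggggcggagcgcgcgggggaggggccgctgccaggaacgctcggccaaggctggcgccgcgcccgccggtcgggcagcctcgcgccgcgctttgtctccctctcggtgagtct
Cxcl1: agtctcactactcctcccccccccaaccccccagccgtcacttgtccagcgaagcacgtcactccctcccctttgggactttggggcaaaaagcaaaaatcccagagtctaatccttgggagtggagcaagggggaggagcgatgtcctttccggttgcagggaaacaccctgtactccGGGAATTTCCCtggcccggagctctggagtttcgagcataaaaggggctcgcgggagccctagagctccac
Irgm2: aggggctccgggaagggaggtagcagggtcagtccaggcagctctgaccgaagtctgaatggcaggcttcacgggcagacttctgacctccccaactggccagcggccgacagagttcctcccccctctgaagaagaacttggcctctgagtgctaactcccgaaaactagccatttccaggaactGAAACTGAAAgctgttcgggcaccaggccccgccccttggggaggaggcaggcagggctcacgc

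All motifs were searched on both strands. A match describes the letters and is neither a site nor a cause. Among all 32851 windows of this length, 10.4% held TGCACNC, 12.5% held TGCGCNC, 7.02% held TTCNNNGAA, 1.21% held the NF-kB motif and 2.98% held the interferon response motif. Among the 8627 tested genes with a window the shares were 12.8%, 24.0%, 7.29%, 1.43% and 3.30% in the same order. Of the 29 acute phase and IL-6 response genes with a window, 7 (24.1%) held the STAT motif. The same motif was held by 9 of 29 interferon-stimulated genes (31.0%). Among called genes with a window, 6 of 66 lower (9.09%) and 8 of 72 higher genes (11.1%) held it. Of the 29 interferon-stimulated genes with a window, 14 (48.3%) held the interferon response motif. Among called genes with a window, 3 of 66 lower (4.55%) and 6 of 72 higher genes (8.33%) held it. Of 14 heat shock genes with a window, 6 (42.9%) held the heat shock motif GAANNTTC, against 6.69% of all windows and 6.33% of tested genes. This motif was held by 2 of 66 lower (3.03%) and 3 of 72 higher genes (4.17%). Shares within a list describe the list, whatever its genes did on these arrays.

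Depth is not defined for arrays, and the small number of arrays limits the precision. The non-aggregate arrays detected 16708 ± 322 probes (SD, n = 3) and the normal arrays 15753 ± 528 (SD, n = 3), a difference in which the groups did not overlap (exact permutation test, 2-sided, p = 0.1, the smallest that 3 against 3 arrays allow). Mean signal was 354 ± 16.8 intensity units in the non-aggregate and 353 ± 45.2 in the normal group (SD, n = 3 each, exact permutation p = 1). Across genes, the Pearson correlation between 2 arrays ran from 0.986 to 0.991 within the non-aggregate group, from 0.979 to 0.985 within the normal group and from 0.973 to 0.982 between the groups. Genes are not independent replicates, and these values carry no p. All 18 hepatocyte markers tested were detected on at least 1 array of each group. Tested markers had already passed a detection filter, so this could not test the hepatocyte label. Fabp1, a listed marker that did not pass the filter, was detected on no array. Of 24 endothelial markers tested, 2 were detected on no normal array and 3 on no non-aggregate array. The Y-linked genes Eif2s3y, Kdm5d and Uty were detected on all 6 arrays and Xist on none, which matches the male label.

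Relatively few genes passed the adjusted threshold. This number depends on the 3 arrays per group and on the settings, and it does not count the genes that differ. With limma and Benjamini-Hochberg adjustment over 10641 genes, 159 genes (1.49%) passed an adjusted p below 0.05 in non-aggregate against normal hepatocytes. Of these, 83 were higher (0.78%) and 76 were lower (0.714%) in the non-aggregate cells. The split moved with the scaling: median scaling gave 95 higher and 41 lower, and normalizing each chip by itself gave 55 higher and 106 lower. At an unadjusted p below 0.05 there were 832 higher and 777 lower. The 3 arrays of one group lay wholly apart from those of the other for 2436 genes (22.9%), and all 159 called genes were among them. Of the called genes 71 differed by less than 2-fold, 77 by 2-fold to 4-fold and 11 by more. The median change over all genes was -0.00414 on the log2 scale, and 50.6% of genes were below 0. The number of calls rested on single arrays: it was 59 without normal replicate 1, 66 without normal replicate 2, 368 without normal replicate 3, and 54, 20 and 50 without non-aggregate replicate 1, 2 and 3. With 1 of the 6 arrays left out at a time, 16 of the 159 genes were called in every one of the 6 fits.

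The sharpest falls in the non-aggregate cells were in the metallothioneins Mt2 and Mt1. Levels here are normalized log2 intensities, given for replicates 1, 2 and 3 in that order, and changes are non-aggregate minus normal on the log2 scale with their standard error from limma. Mt2 stood at 9.56, 9.80 and 8.91 on the normal arrays and at 4.55, 4.64 and 5.69 on the non-aggregate arrays. The groups lay far apart, and only 1 of the 3 non-aggregate arrays detected Mt2 above background. The change was -4.46 (SE 0.39, n = 3 and 3, adjusted p = 0.00089). Mt1 stood at 15.48, 15.46 and 15.49 on the normal arrays, close to the highest value that the normalization gives (15.56), and at 10.43, 11.82 and 13.59 on the non-aggregate arrays. Each non-aggregate array was lower than all normal ones, but the 3 were spread over several log2 units. The fitted change was -3.53 (SE 0.69, adjusted p = 0.0285), and with normal values this near the ceiling it can be read only as a minimum fall. The zinc and iron importer Slc39a14 fell by 0.89 on the log2 scale (SE 0.17, adjusted p = 0.0232). These 3 were the called members among 32 tested of 34 metallothionein, iron and heme genes (9.38%, against 1.49% of all genes). The median change of the list was 0.01. Leaving out single arrays kept the call of Mt2 (adjusted p at most 0.011), while Mt1 lost it in 4 of the 6 such fits (up to 0.117) and Slc39a14 in 5 (up to 0.117).

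**Figure D1:**
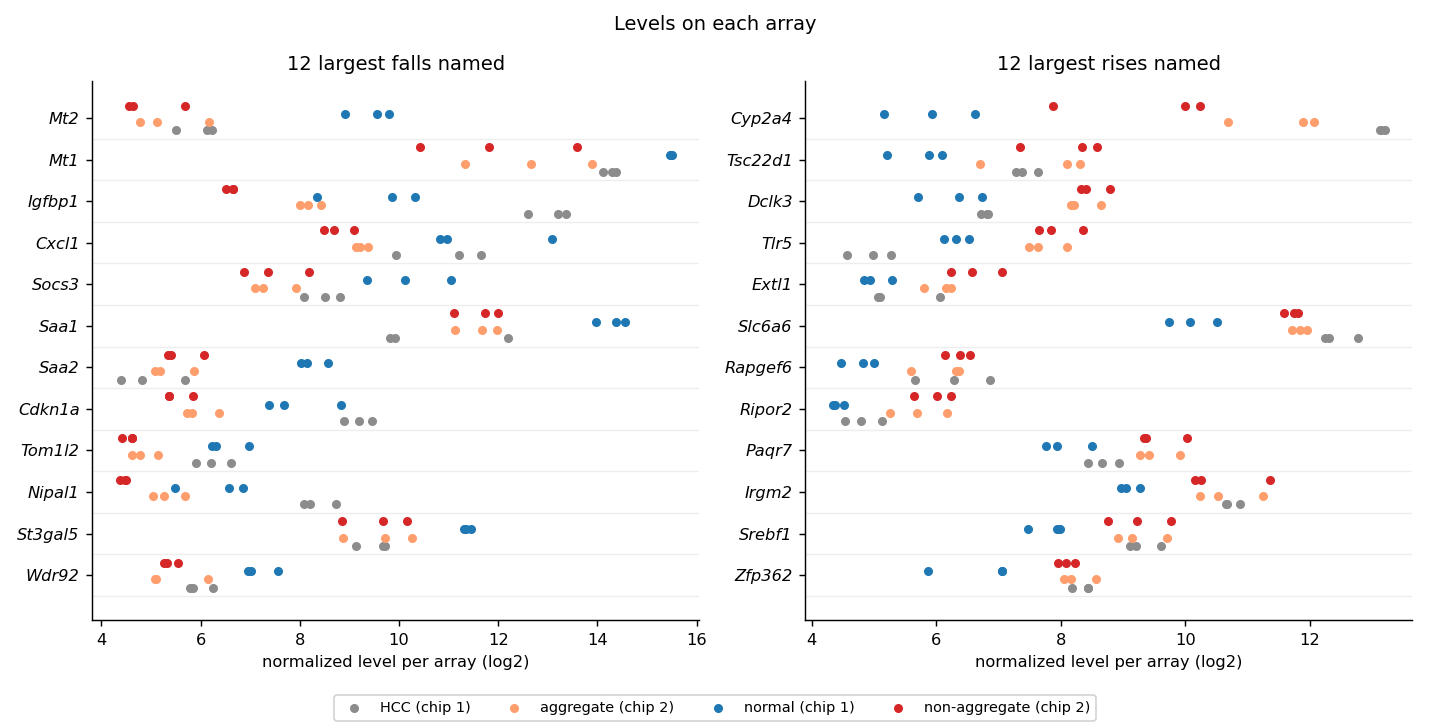
Normalized log2 level of the genes with the largest falls (left, 12 genes) and rises (right, 12 genes) on each array, with a point per array coloured by group and the chip of each group in the legend. The red non-aggregate and blue normal points do not overlap for any gene shown, as the choice of genes required, and Mt2 and Mt1 are the furthest apart on the left.

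Several genes of the acute phase and IL-6 response were lower in the non-aggregate cells. Of 37 such genes, 33 were tested, 6 were called lower, 0 were called higher and 27 were not called (18.2% called, against 1.49% of all genes). The lists were chosen with earlier results of these data known. The shares of this and the other lists are therefore descriptions and test nothing. The median change was -0.67, against -0.00414 over all genes, 31 of the 33 were below 0. In 16 (48.5%) the non-aggregate arrays lay wholly below the normal ones, where 22.9% of all genes lay apart in either direction. The 6 were Mt2, Mt1, Socs3, Saa1, Saa2 and the interleukin-1 receptor Il1r1. Mt2 and Mt1 are also counted in the metallothionein list, and Socs3 in the immediate early list. Socs3, the feedback inhibitor of the IL-6 receptor, stood at 11.06, 10.12 and 9.34 on the normal arrays and at 7.36, 8.19 and 6.88 on the non-aggregate arrays. Every non-aggregate array was lower than every normal array, with a change of -2.70 (SE 0.42, adjusted p = 0.0137).

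Serum amyloid A is the classical acute phase protein of the mouse. Saa1 stood at 14.38, 13.98 and 14.56 on the normal arrays and at 11.10, 11.74 and 11.999 on the non-aggregate arrays, a change of -2.69 (SE 0.52, adjusted p = 0.0262). Saa2 stood at 8.56, 8.15 and 8.03 on the normal arrays and at 5.34, 6.07 and 5.41 on the non-aggregate arrays, a change of -2.64 (SE 0.33, adjusted p = 0.00411). Both groups were tight and far apart for Saa2, and the probes of these near-identical genes may read both copies. Il1r1 changed by -1.13, just past the threshold (adjusted p = 0.0497). Among members not called, the iron-binding protein Lcn2 was at -2.14 (adjusted p = 0.163), the metalloreductase Steap4 at -1.25 (adjusted p = 0.0501), and the iron hormone Hamp at 0.12. With single arrays left out, the number of called members ran from 3 to 6 and the median from -0.74 to -0.54. Saa1 lost its call in 5 of these 6 fits (adjusted p up to 0.102), whereas Saa2 and Socs3 kept theirs. Socs3 was not called with only these 6 arrays fitted (adjusted p = 0.0658). The 4 neutrophil markers tested were low on all arrays and moved with the same groups: their summed level was 56.0 to 73.9 intensity units on the normal and 26.3 to 36.5 on the non-aggregate arrays, 1 of the 4 was detected on no normal array and 2 on no non-aggregate array. The part of these cells in the result was not tested.

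**Figure D2:**
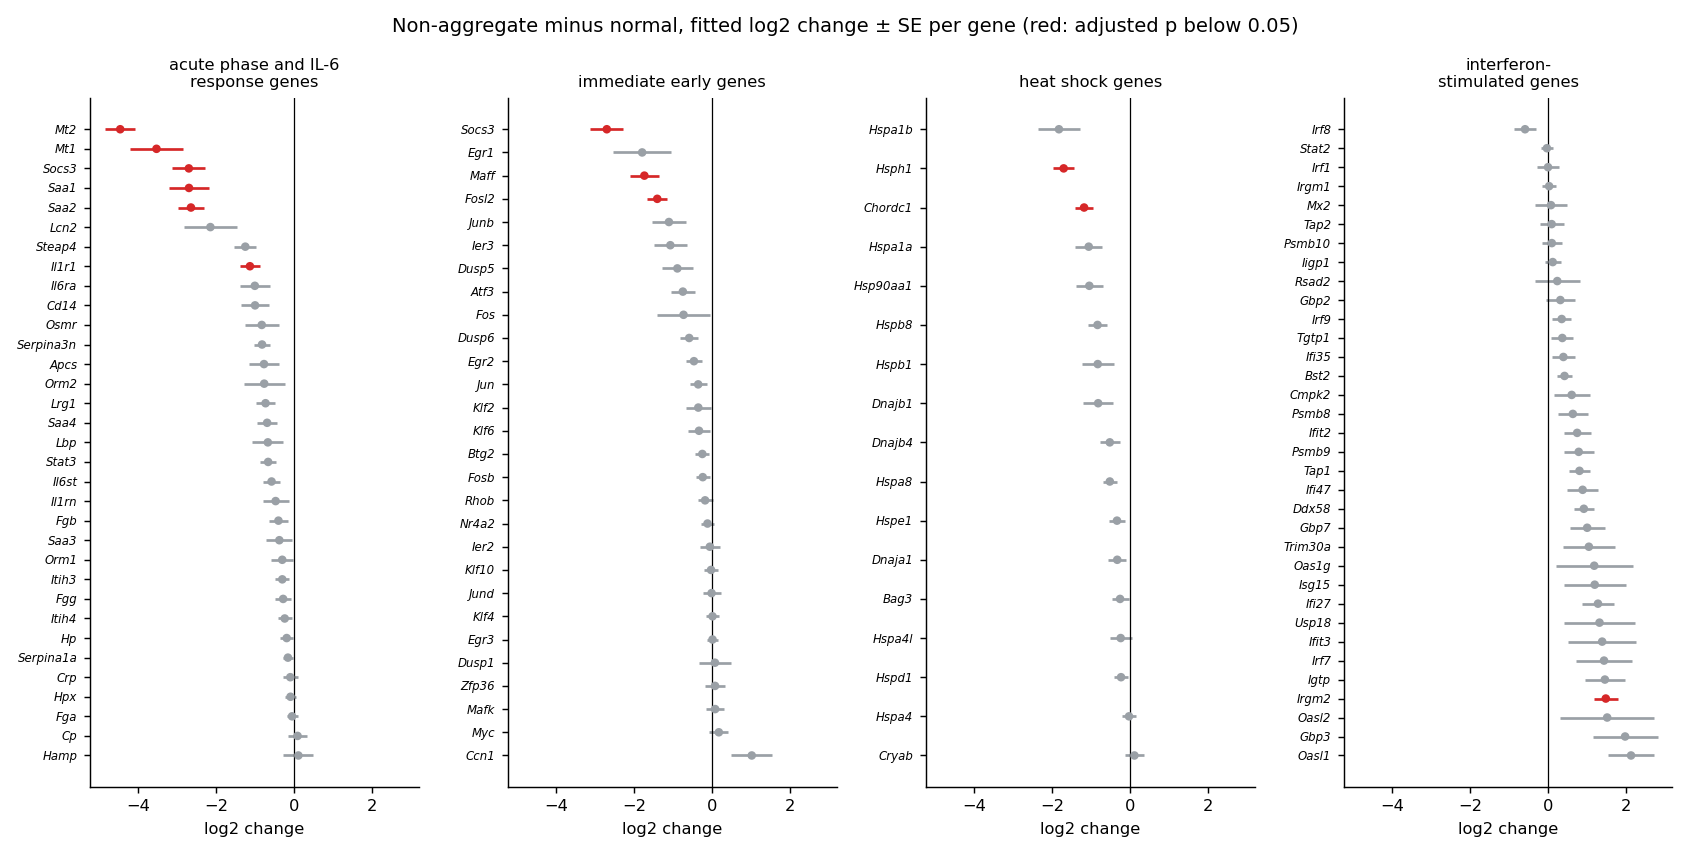
Fitted log2 change with its standard error for each tested member of the acute phase, immediate early, heat shock and interferon-stimulated lists, with genes at an adjusted p below 0.05 in red. In the acute phase list 31 of 33 points lie left of 0, and in the interferon-stimulated list 32 of 34 lie right of it, with 1 called.

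A few immediate early and heat shock genes were lower as well, and most were not called. Of 28 immediate early genes tested, 3 were called lower (10.7%, against 0.714% of all genes) and 0 higher, with a median of -0.29. They were Socs3 and the AP-1 partners Fosl2 (-1.40, SE 0.26, adjusted p = 0.0232) and Maff. In this list the groups lay wholly apart for 1 higher and 5 lower members (21.4%, against 22.9% of all genes). The list median, relative to each gene's normal mean, was 0.41, -0.21 and -0.15 on the normal arrays. On the non-aggregate arrays it was -0.20, -0.29 and -0.28, so the groups overlapped. Maff was detected on no non-aggregate array and was at least 2.48-fold lower (adjusted p = 0.0399). Of 17 heat shock genes tested, 2 were called lower (11.8%, against 0.714% of all genes) and 0 higher, 16 were below 0, and the median was -0.51. Hsph1, a large chaperone that exchanges the nucleotide of Hsp70, stood at 11.22, 10.56 and 10.47 on the normal arrays and at 9.17, 8.73 and 9.26 on the non-aggregate arrays. The non-aggregate arrays were all lower, with a change of -1.70 (SE 0.26, adjusted p = 0.0132). The co-chaperone Chordc1 changed by -1.17 (SE 0.23, adjusted p = 0.0313). The inducible Hsp70 gene Hspa1b had a wider spread and was not called (-1.82, adjusted p = 0.131). Without non-aggregate replicate 2 no heat shock gene was called, the call of Hsph1 being lost at an adjusted p of 0.0709. Fosl2 lost its call in 4 of the 6 fits with an array left out, and Maff and Chordc1 in 5.

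Cdkn1a, the p21 inhibitor of cyclin-dependent kinases, was lower in the non-aggregate cells. Its level was 7.37, 8.83 and 7.68 on the normal arrays and 5.84, 5.36 and 5.37 on the non-aggregate arrays. The groups were separate, with a change of -2.44 (SE 0.33, adjusted p = 0.00668). It was the only called member of 24 tested p53 targets and damage response genes (4.17%, against 1.49% of all genes), whose median was -0.03. Gadd45g, a stress sensor in that list, was at -2.56 and not called (adjusted p = 0.0601). Of 26 DNA repair genes tested, only Brca2, which loads the recombinase at broken DNA, was called (3.85%, against 1.49% of all genes). It was detected on no normal array and was at least 1.51-fold higher (adjusted p = 0.03). Of 27 cell division genes tested, 0 were called and the median was -0.07. The call of Cdkn1a held in each of the 6 fits with an array left out (adjusted p at most 0.0437), and that of Brca2 was lost in 5.

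Igfbp1, an insulin-suppressed binding protein for insulin-like growth factors, stood at 9.86, 10.33 and 8.34 on the normal arrays and at 6.65, 6.51 and 6.65 on the non-aggregate arrays. The non-aggregate arrays were nearly equal to each other and below every normal one. The change was -2.91 (SE 0.39, adjusted p = 0.00668). The call held with any single array left out (adjusted p at most 0.0437) and was lost, at the threshold, with only these 6 arrays fitted (adjusted p = 0.0500115). It was the only called member of 25 growth factor and IGF genes and of 23 gluconeogenesis and glycogen genes tested. These shares were 4% and 4.35%, against 1.49% of all genes. In the gluconeogenesis and glycogen list the glycogen phosphatase subunit Ppp1r3g was at -3.10 (adjusted p = 0.092) and the lipid phosphatase Lpin1 at -2.93 (adjusted p = 0.074), and neither was called. Cxcl1, a chemokine that attracts neutrophils, stood at 13.08, 10.97 and 10.82 on the normal arrays and at 8.69, 8.48 and 9.10 on the non-aggregate arrays. Normal replicate 1 was the highest, and the change was -2.86 (SE 0.54, adjusted p = 0.0242). The call of Cxcl1 was lost without any 1 of the 3 non-aggregate arrays (adjusted p up to 0.112). It was the only called member of 22 NF-kB targets and chemokines tested (4.55%, against 1.49% of all genes), whose median was -0.03.

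Lipid genes moved in both directions. Srebf1, the transcription factor that drives fatty acid synthesis, stood at 7.47, 7.94 and 7.99 on the normal arrays and at 8.75, 9.77 and 9.22 on the non-aggregate arrays. All non-aggregate arrays were higher, with a change of 1.45 (SE 0.27, adjusted p = 0.0251). Plin4, a coat protein of lipid droplets, changed by -1.74 (SE 0.32, adjusted p = 0.0232). These 2 were the calls among 26 fatty acid synthesis and lipid droplet genes tested (7.69%, against 1.49% of all genes), which had a median of -0.17. Cyp51, the lanosterol demethylase of cholesterol synthesis, stood at 10.42, 10.80 and 10.76 on the normal arrays and at 8.93, 9.36 and 9.72 on the non-aggregate arrays. The 3 non-aggregate arrays were all lower, with a change of -1.33 (SE 0.25, adjusted p = 0.0237). It was the only call among 18 cholesterol synthesis genes tested of 25 (5.56%, against 1.49% of all genes). Of the 18, 17 were below 0, and the median was -0.46. Sqle, which makes squalene epoxide, was at -1.57 and not called (adjusted p = 0.107), and Sc5d was the single member above 0 (0.79, adjusted p = 0.116). Each of Srebf1, Plin4 and Cyp51 lost its call in 4 of the 6 fits with an array left out (adjusted p up to 0.112).

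The remaining largest falls named were single genes of different functions. St3gal5, the synthase of the ganglioside GM3, stood at 11.35, 11.31 and 11.45 on the normal arrays and at 8.84, 9.68 and 10.16 on the non-aggregate arrays. The normal arrays were nearly equal, the non-aggregate arrays were lower and more spread, and the change was -1.81 (SE 0.36, adjusted p = 0.0313). Wdr92, a cofactor of dynein assembly, changed by -1.80 (SE 0.27, adjusted p = 0.0113). Tom1l2, an adaptor of endosomal sorting, was detected on no non-aggregate array and was at least 3.36-fold lower (adjusted p = 0.00381). Nipal1, a magnesium transporter, was at least 2.92-fold lower (adjusted p = 0.0142) on the same terms. Tom1l2 and Wdr92 kept their calls with any single array left out, Wdr92 was at -0.81 and not called with the mean of its probes (adjusted p = 0.0676), and St3gal5 and Nipal1 lost theirs in 4 of the 6 fits. The tight junction claudin Cldn14 (-1.19, SE 0.25, adjusted p = 0.0399) was the only call among 23 adhesion and tight junction genes tested (4.35%, against 1.49% of all genes). Its call was lost in 5 of the 6 fits. Uqcrfs1, the Rieske subunit of respiratory complex III, was detected on no non-aggregate array and was at least 1.20-fold lower (adjusted p = 0.0399). Its probe was near background in both groups. It stood at 4.98, 4.99 and 5.12 on the normal arrays, where the lowest detected levels were 4.93, 4.90 and 4.80. Uqcrfs1 was the only call among 37 respiratory chain genes tested (2.70%, against 1.49% of all genes), and this call was lost in all 6 fits.

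The steepest rise was in Cyp2a4, a steroid hydroxylase that is higher in female than in male mouse liver. It stood at 5.94, 5.16 and 6.63 on the normal arrays and at 7.87, 10.24 and 9.99 on the non-aggregate arrays. The groups were separate, with non-aggregate replicate 1 the lowest of its group. The change was 3.46 (SE 0.57, adjusted p = 0.0142). The probe may also read the near-identical Cyp2a5, whose own probe stood at 13.26, 13.16 and 13.33 on the normal and at 13.28, 14.70 and 14.71 on the non-aggregate arrays. Cyp2a5 was not called (0.98, adjusted p = 0.247). Cyp2a4 was the only call among 29 drug P450 and monooxygenase genes (median 0.18) and among 14 female-biased liver genes (median 0.24) tested. These shares were 3.45% and 7.14%, against 1.49% of all genes. Of 25 male-biased liver genes tested, 0 were called (median 0.06). The call of Cyp2a4 was lost in 4 of the 6 fits with an array left out (adjusted p up to 0.0718).

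Dclk3, a kinase of the doublecortin-like family, stood at 5.72, 6.37 and 6.74 on the normal arrays and at 8.41, 8.80 and 8.33 on the non-aggregate arrays. The non-aggregate arrays were all higher, with a change of 2.24 (SE 0.24, adjusted p = 0.00351). Slc6a6, the taurine transporter, stood at 9.74, 10.08 and 10.50 on the normal arrays and at 11.58, 11.74 and 11.80 on the non-aggregate arrays, a change of 1.60 (SE 0.20, adjusted p = 0.00449). These were the only 2 of the 12 largest rises named that stayed called with each single array left out.

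Tsc22d1, a leucine zipper protein that responds to TGF-beta, stood at 5.88, 6.10 and 5.21 on the normal arrays and at 8.35, 8.58 and 7.35 on the non-aggregate arrays, a change of 2.36 (SE 0.41, adjusted p = 0.0165). Tlr5, the receptor for bacterial flagellin, stood at 6.31, 6.52 and 6.13 on the normal arrays and at 7.84, 8.35 and 7.64 on the non-aggregate arrays, a change of 1.62 (SE 0.24, adjusted p = 0.0111). Both genes were higher on every non-aggregate array. Tlr5 lost its call without non-aggregate replicate 2 alone (adjusted p = 0.0547), and Tsc22d1 lost its call in 3 of the 6 fits. The other large rises were in the glycosyltransferase Extl1 (1.60, SE 0.28, adjusted p = 0.0165), the exchange factor for Rap proteins Rapgef6 (1.59, SE 0.29, adjusted p = 0.0232), the progestin receptor Paqr7 (1.51, SE 0.25, adjusted p = 0.0142) and the zinc finger gene Zfp362 (1.43, SE 0.28, adjusted p = 0.0284). Ripor2, an inhibitor of RhoA, was detected on no normal array and was at least 2.13-fold higher (adjusted p = 0.0113). Each of these 5 lost its call in at least 1 and at most 5 of the 6 fits with an array left out. With the mean of a gene's probes, Rapgef6 was at 0.46 (adjusted p = 0.380) and Ripor2 at 0.71 (adjusted p = 0.144), and neither was called.

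Interferon-stimulated genes were mostly above 0, with 1 call. Irgm2, an immunity-related GTPase, stood at 9.27, 9.05 and 8.97 on the normal arrays and at 10.25, 10.15 and 11.35 on the non-aggregate arrays. All non-aggregate arrays were higher, replicate 3 most so, and the change was 1.49 (SE 0.31, adjusted p = 0.037). It was the only call among 34 tested of 42 interferon-stimulated genes (2.94%, against 1.49% of all genes), of which 32 were above 0 with a median of 0.78, and the call was lost in each fit with an array left out (adjusted p up to 0.103). The level of the list was highest on the arrays of replicate 3. Its median, relative to each gene's normal mean, was 0.21, 0.28 and 1.47 on non-aggregate replicates 1, 2 and 3. On the aggregate arrays, also on chip 2, it was 0.62, 0.53 and 1.57 in the same order. Isg15, a ubiquitin-like protein induced by interferon, stood at 6.88, 6.84 and 6.26 on the normal arrays and at 7.02, 6.94 and 9.65 on the non-aggregate arrays. Non-aggregate replicate 3 stood alone, and Isg15 was not called (1.21, adjusted p = 0.531). Oasl1 stood at 6.58, 6.43 and 6.08 on the normal arrays and at 7.80, 7.92 and 9.79 on the non-aggregate arrays, and was not called (2.14, adjusted p = 0.113). Without non-aggregate replicate 3 the median of the list was 0.26. The same array had the highest summed level of the 14 monocyte and macrophage markers tested, 2950 intensity units, against 889 to 1212 on the other non-aggregate and 1090 to 1489 on the normal arrays. Most of that sum was Mpeg1, a pore-forming protein of macrophages, at 10.95 on this array and 8.57 to 9.43 on the other 5. Without Mpeg1, a choice made after seeing the data, the sum was 992 on this array, 479 to 536 on the other non-aggregate and 460 to 1124 on the normal arrays. The part of these cells in the result was not tested.

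**Figure D3:**
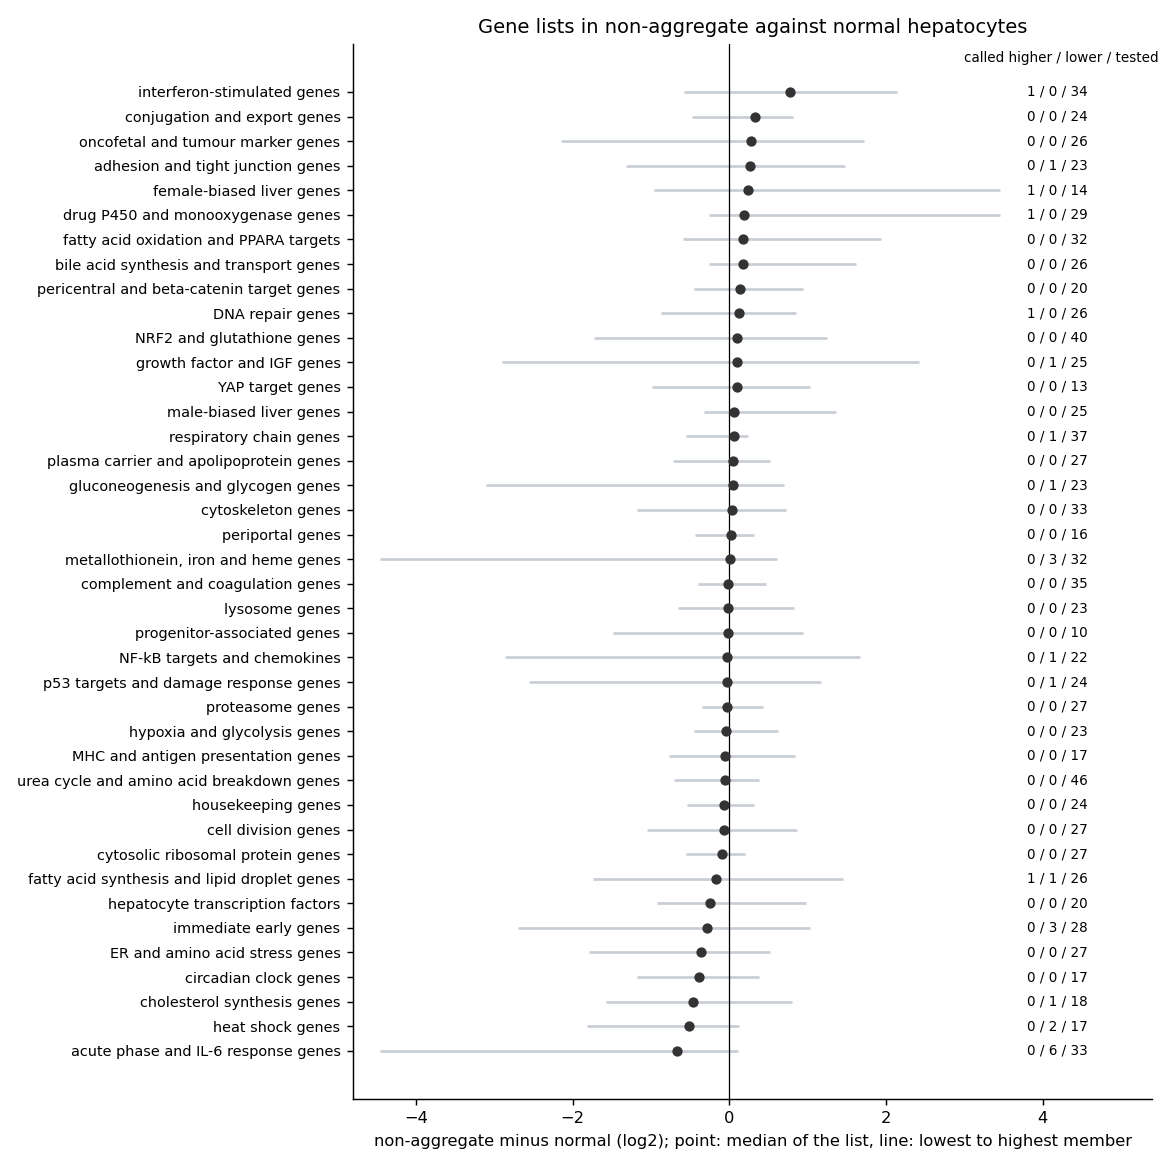
Median (point) and lowest to highest member (line) of the log2 change in each of the 40 gene lists, with the numbers called higher, called lower and tested at the right. The medians run from -0.67 in the acute phase and IL-6 response list to 0.78 in the interferon-stimulated list.

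Markers of the tumours of this model were low in the non-aggregate cells and none was called. Of 26 oncofetal and tumour marker genes tested, 0 passed the test, against 1.49% of all genes. The median was 0.28, and 20 were above 0. The groups lay wholly apart for 6 higher members and 1 lower member (26.9%, against 22.9% of all genes). Gpc3, a membrane proteoglycan used as a liver tumour marker, stood at 4.45, 4.40 and 4.61 on the normal arrays, where it was not detected, and at 5.63, 6.47 and 5.87 on the non-aggregate arrays. The groups did not overlap, and the level was at least 2.16-fold higher, with no call (adjusted p = 0.173). The tetraspanin Tspan8, not detected on the normal arrays either, was at least 2.55-fold higher, with no overlap of the groups and no call (adjusted p = 0.0821). On the HCC arrays the mean log2 level was 12.07 for Gpc3 and 12.12 for Tspan8. Alpha-fetoprotein, Afp, the steroid dehydrogenase Akr1c18 and the surface protein Ly6d were also detected on no normal array. Akr1c18 was at least 1.64-fold higher, with groups that did not overlap (adjusted p = 0.163). Ly6d stood at 4.75, 4.83 and 4.76 on the normal arrays and at 4.59, 5.26 and 5.07 on the non-aggregate arrays. The groups overlapped, so no minimum rise of Ly6d can be read (adjusted p = 0.735). Afp gave no fold above its bound (adjusted p = 0.865), and none of these genes was called. The tetraspanin Cd63 was at 0.77, with groups that did not overlap (adjusted p = 0.223). The hyaluronan receptor Cd44 was at -0.45 (adjusted p = 0.48) and the bile duct factor Sox9 at -0.70 (adjusted p = 0.528). Il6 did not pass the detection filter.

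The metabolic lists of the hepatocyte gave few calls. Only 1.49% of all genes were called, so lists of these sizes can hold 0 calls for that reason alone. Lists with 0 called members included the 46 urea cycle and amino acid breakdown genes tested (median -0.06), 35 complement and coagulation genes (-0.01), 32 fatty acid oxidation genes and PPARA targets (0.18), 26 bile acid genes (0.18), 24 conjugation and export genes (0.33), 20 pericentral genes (0.13) and 16 periportal genes (0.02). The share of members with groups wholly apart ran from 2.86% (complement and coagulation) to 29.2% (conjugation and export) in these lists, against 22.9% of all genes. The pericentral enzymes Cyp2e1, which oxidises ethanol and activates nitrosamines, and Glul, glutamine synthetase, were at 0.09 (adjusted p = 0.863) and 0.06, and albumin, Alb, at 0.10. The Cyp2e1 probe stood at 15.11 to 15.36 on the 6 arrays, near the ceiling of 15.56. The Alb probe stood at 8.61 to 9.22 there, far below the probe of the plasma protein Ttr (15.16 to 15.36). How well it reads albumin RNA was not tested. Among the 20 hepatocyte transcription factors tested, with a median of -0.25 and 0 calls, the master regulator Hnf4a was at -0.66 with non-overlapping arrays (adjusted p = 0.138). The 17 clock genes (-0.39) and 27 endoplasmic reticulum and amino acid stress genes (-0.36) also had no call, and the 24 housekeeping genes had a median of -0.06. A gene that missed the threshold is not thereby shown to be equal in both groups.

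Markers of other liver cells showed no called member in any list, where 1.49% of all genes were called. The summed level of 18 hepatocyte markers was 297345 to 301785 intensity units on the normal and 296276 to 320924 on the non-aggregate arrays. Most of this sum came from 5 markers near the ceiling (Ttr, Apoa1, Trf, Serpina1c and Cyp2e1), and the other 13 summed to 93198 to 105382 and 87457 to 105848. The 13 Kupffer cell markers summed to 3997 to 4441 on the normal and 2858 to 4895 on the non-aggregate arrays. Most of this sum was the iron exporter Slc40a1, and without it the other 12 summed to 404 to 1020 and 358 to 1030. Both of these reduced sums were chosen after seeing the data. The 24 endothelial markers summed to 2269 to 6594 and 3584 to 4937. The 19 stellate cell and fibroblast markers summed to 758 to 2045 and 722 to 1431, with 8 of the 19 detected on no normal array and 8 on no non-aggregate array. The groups overlapped in each of these sums. For endothelial and stellate markers the overlap rested on normal replicate 3. The endothelial sum was 6594, 5426 and 2269 on normal replicates 1, 2 and 3, and the stellate and fibroblast sum was 2045, 1803 and 758. The Kupffer cell sum without Slc40a1 was 948, 1020 and 404 in the same order. The part of these cells in the result was not tested.

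**Figure D4:**
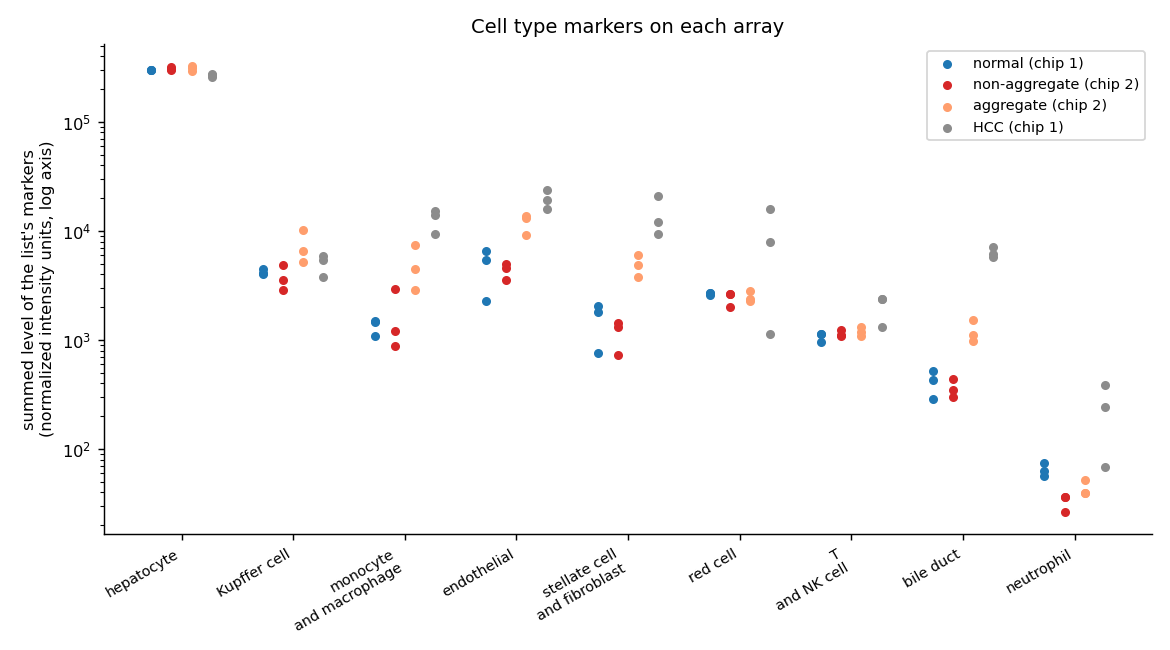
Summed level of the tested markers of each cell type on each array (log axis, normalized intensity units), with a point per array coloured by group. Red non-aggregate and blue normal points overlap for hepatocyte, Kupffer cell, macrophage and endothelial markers, with non-aggregate replicate 3 the highest of the 6 for macrophage markers, most of it Mpeg1, and lie apart for the 4 neutrophil markers.

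Since chip and group cannot be told apart, the called genes were set beside the only other comparison across the same chips that shares no array with this one, aggregate premalignant cells (chip 2) against HCC (chip 1). Of the 83 genes higher in non-aggregate cells, 24 (28.9%) were also called higher in aggregate cells against HCC, where 17.7% of all genes were called higher, 10 were called the other way and 49 were not called. Of the 76 lower genes, 25 (32.9%) were also called lower there, where 17.5% of all genes were, 8 were called the other way and 43 were not called. Tlr5 was 2.80 higher in that comparison on the log2 scale, and Igfbp1 fell by 4.86. Mt1 was at -1.64, Mt2 at -0.59 and Saa1 at 0.95. Aggregate cells and HCC also differ in kind, and the part of the chip in the changes was not tested.

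**Figure D5:**
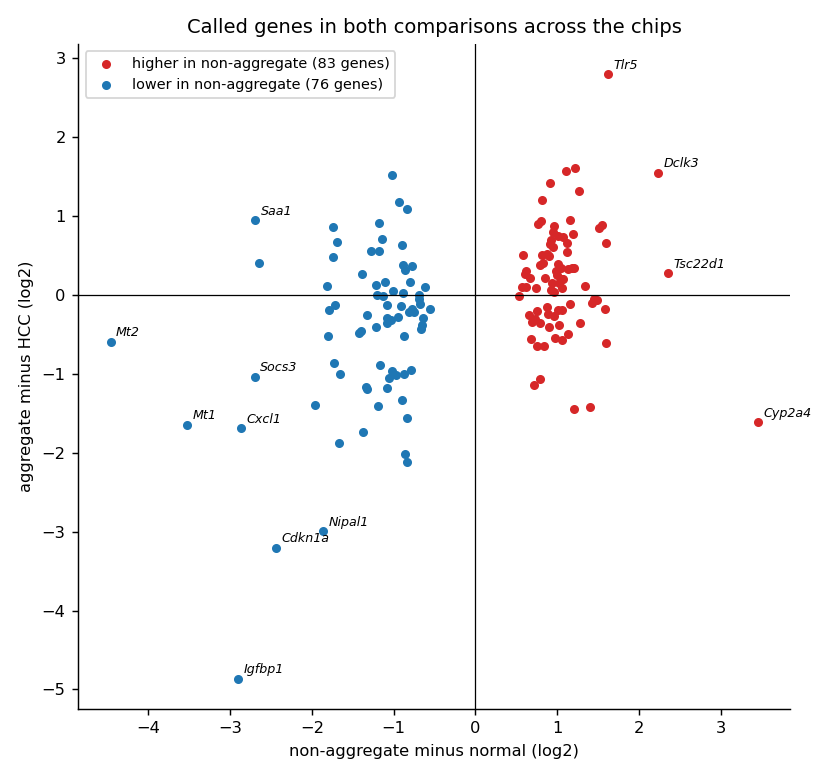
Log2 change in aggregate cells against HCC (vertical) against log2 change in non-aggregate against normal hepatocytes (horizontal) for the 83 genes called higher and 76 called lower in the latter, with a point per gene. Both axes are chip 2 minus chip 1 and share no array. Points lie above and below the horizontal line on both sides.

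The within-chip comparison of HCC with the normal cells shares the normal arrays, so its values are given side by side only. Mt2 was at -3.47 in HCC and -4.46 in non-aggregate cells, Saa1 at -3.66 and -2.69, Saa2 at -3.28 and -2.64, Socs3 at -1.71 and -2.70, and St3gal5 at -1.87 and -1.81. Igfbp1 and Cdkn1a had opposite signs, at 3.55 and 1.22 in HCC and at -2.91 and -2.44 in non-aggregate cells. Cyp2a4 was at 7.25 in HCC and 3.46 in non-aggregate cells, Slc6a6 at 2.33 and 1.60, and Tsc22d1 at 1.70 and 2.36. Tlr5 was at -1.38 in HCC and 1.62 in non-aggregate cells.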

How the data were processed

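RNA labelled with biotin was hybridised to bead arrays, per the labels. The table used gives, per the file headers, a mean bead intensity for each probe on each array, on a linear scale and with no background subtraction evident (lowest value 30.6). Beside each intensity the deposited table has a detection p-value, per the file headers. The submitters' own normalized intensities, also deposited and made by a method not given in the sources used here, served as an alternative.

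Background was corrected by normexp from the detection p-values (offset 16), followed by quantile normalization over 12 arrays and log2 (neqc, limma 3.58.1, R 4.3.3). Probes detected (p below 0.05) on at least 3 of 12 arrays were kept, and 0 data columns stayed unmapped. A gene was its kept probe with the highest mean. Names came from the platform annotation and RefSeq (34807 of 45281 probes matched). Each gene was fitted by limma (lmFit, eBayes, 2-sided) with 4 group means over 12 arrays, and p-values were Benjamini-Hochberg adjusted over 10641 genes. For a gene detected on no array of the lower group, the fold is a bound against the lowest detected level per array. Of 1412 entries in 51 lists, 1288 were on the array and 1128 were tested. Members and lists were chosen with earlier results of these data known. Genes were named if among the 12 steepest rises or 12 steepest falls of called genes without overlap (clone names and predicted genes passed over), among up to 4 called members per list or in a panel of 14 genes (Afp, Gpc3, Tspan8, Akr1c18, Ly6d, Cd44, Sox9, Cd63, Cyp2e1, Glul, Alb, Mki67, Cdkn1a and Il6), of which Mki67 matched no probe here. Other genes named, Il1r1, Lcn2, Hamp, Cyp2a5, Isg15 and Hnf4a among them, were chosen after their values were seen. The fit was tested on simulated data. Alternatives covered background correction, normalization, filter, probe choice, arrays in the fit, weights and single arrays left out.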

Additional observations from a re-analysis of the deposited data

How the results depend on the processing

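All 159 called genes kept their direction under each alternative that gave them a value, except that 1 turned when only these 6 arrays were normalized and fitted. The number called was 159 (83 higher, 76 lower). It was 78 (40 and 38) with only these 6 arrays normalized and fitted, 62 (30 and 32) with only these 6 fitted, 516 (283 and 233) with array weights and 88 (41 and 47) with a log2 change of at least 1. Median scaling gave 95 higher and 41 lower, so 69.9% of calls were higher against 52.2%. Normalizing each chip by itself gave 55 higher and 106 lower (34.2% higher). These scalings moved the median of all genes by at most 0.0794. Other normalizations, filters and probe choices gave 144 to 199 calls. With 1 array left out, calls ran from 20 to 368, higher from 6 to 204 and lower from 14 to 164. Replicate numbers did not pair normal with non-aggregate samples (correlations of deviations -0.09, -0.05 and 0.04). Limma on only these 6 arrays gave 0 calls with the replicate block, against 62 without it. Under the block 1581 genes had an unadjusted p below 0.05. The fit over 12 arrays took every array as independent, and pairing of non-aggregate with aggregate samples was not tested. For some genes these lay close by replicate number. Saa1, picked after its values were seen, stood at 11.10, 11.74 and 11.999 on the non-aggregate and at 11.13, 11.68 and 11.97 on the aggregate arrays. Among 34 called genes named, 9 were called in each fit with an array left out. Calls were lost by 19 of the 34 with only these 6 arrays fitted, by 18 with only these normalized and fitted, by 12 with no detection filter, by 6 each with median scaling and the submitters' values, by 5 with no background correction, and by 3 each with cyclic loess and the mean of a gene's probes. Gpc3 passed with array weights (adjusted p = 0.0464) and with only these 6 arrays fitted (0.0463), and Tspan8 with array weights (0.0369) and without non-aggregate replicate 1 (0.0389). Among the genes named by the rule, for which the alternatives were run, signs turned only for 4 that were not called and lay near 0: Ly6d to -0.0337 with the submitters' values, Cyp2e1 to -0.0156 with median scaling, -0.0546 with each chip normalized by itself and -0.0374 with the submitters' values, and Glul to -0.0117 with each chip by itself. With 1 array left out, Glul ran from -0.0824 to 0.171 and Alb from -0.00855 to 0.297. The causes were not tested. The main limits are that chip and group cannot be told apart, that 3 arrays per group give no exact p below 0.1, and that probes near background give bounds only.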

Other observations

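Of 2911 kept probes with no gene name here, 7 were higher and 8 lower in non-aggregate against normal hepatocytes at an adjusted p below 0.05 over 19670 probes (limma, Benjamini-Hochberg), which is 0.515% of them. The median standard deviation of a gene was 0.22 on the log2 scale over the 3 normal arrays and 0.15 over the 3 non-aggregate arrays. Among the called genes, 9 of the higher ones were detected on no normal array and 10 of the lower ones on no non-aggregate array. Further called genes, chosen after their values were seen, were Tnfsf10, a death ligand (1.00), and Pml, a nuclear body protein (1.02), both higher, and Tnfrsf1b, a tumour necrosis factor receptor (-1.08), Ulk1, an autophagy kinase (-1.02), and Map1lc3b, an autophagosome protein (-0.88), all lower in the non-aggregate cells.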
